A study of Mus musculus with 24 samples.

Results

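Recurrent Daxx-KO peaks are stretches of open chromatin that were listed in several knockout cell populations and in none of the matched wild-type populations. They were mapped with ATAC-seq, an assay that uses the transposase Tn5 to cut and tag accessible DNA. The peak intervals of the 5 Daxx-KO lists were merged wherever they shared at least 1 bp. A merged interval was kept as a member when at least 2 of the 5 Daxx-KO lists held it and none of the 5 Daxx-WT lists overlapped it. The rule kept 970 of 86351 merged intervals (1.12%). The mirrored rule, which asked for 2 or more Daxx-WT lists and no Daxx-KO list, kept 2657 of 92714 merged Daxx-WT intervals (2.87%), so recurrent wild-type peaks absent from the knockout were the more numerous. Without the KLS lists the rule kept 625. These numbers describe the choice of members and were not tested.

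The 24 libraries came from haematopoietic stem and progenitor cells of C57BL/6 mouse bone marrow. Daxx-KO animals were Daxx F/F and Daxx-WT animals Daxx +/+, and both carried Cre (Cre +/-), so a Cre allele was shared by all groups. The labels give Daxx +/+ for both controls at 3 d.p.i., whereas a legend of the study names one of them as Daxx +/F, with a single floxed allele, so 1 wild-type library behind the 3 d.p.i. values may be heterozygous. The floxed Daxx line was made on C57BL/6N and crossed to Cre lines on C57BL/6J. Long-term haematopoietic stem cells (LT-HSCs), progenitors common to the myeloid lineages (CMPs) and progenitors of granulocytes and monocytes (GMPs) had 2 libraries per genotype. These 3 populations carry no time in the labels, and the study's methods place them at 3 weeks after tamoxifen in mice with a Cre driven from the ubiquitous Rosa26 locus. A second set of LT-HSCs was taken 3 days post induction (d.p.i.) of the same Cre by tamoxifen, with 3 libraries of Daxx-KO and 2 of Daxx-WT. KLS cells (c-Kit+ Lin- Sca-1+, the gate that holds stem cells and multipotent progenitors) were taken 3 weeks post induction (w.p.i.), with 3 libraries of Daxx-KO, 2 of Daxx-WT and 2 of DKO. DKO cells were Daxx F/F Pu.1 F/F and so lacked both Daxx and Pu.1. Per the methods, the Pu.1 F/F line was bred to Daxx F/F mice with Mx1Cre, the study's blood-directed driver, and Mx1Cre mice received the interferon inducer pI:pC. For the other KLS libraries the driver was not stated outright. Mice were young adults of both sexes, and the labels give no sex or age for a library. The labels do not say whether libraries of a group came from separate mice, and the study describes its genomic data as resting on biological replicates.

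Daxx is a chaperone of the histone variant H3.3. Together with the remodeller Atrx it deposits H3.3 at repetitive and silenced chromatin such as telomeres, pericentric repeats and endogenous retroviruses. Pu.1, encoded by Spi1, is an ETS transcription factor that opens chromatin at enhancers of myeloid and lymphoid genes, and its level helps to set whether a progenitor makes myeloid cells. A region that gains an ATAC-seq peak has become more accessible to the transposase, which can mark an active enhancer, a promoter or an exposed repeat.

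Each group had a single peak list, so presence in a list carries no spread between libraries. The list lengths differed between genotypes. Daxx-KO lists held 70455 peaks in LT-HSCs, 50590 in CMPs, 49677 in GMPs, 44694 in KLS cells and 44326 at 3 d.p.i.. The matched Daxx-WT lists held 65455, 66070, 65306, 33325 and 36949 peaks in the same order, so the knockout list was the longer one in 3 populations and the shorter one in CMPs and GMPs. With 22156 peaks, the DKO list was shorter than all of these. One library stood apart. At 3 d.p.i., a site at Xist (the RNA that coats the inactive X chromosome) had 249.6, 230.98 and 236.47 scaled reads in Daxx-KO against 12.4 and 239.14 in Daxx-WT, so 1 Daxx-WT library differed from the other 4. A Xist start-site peak was present in the LT-HSC, 3 d.p.i. and KLS lists of Daxx-KO and in none of the 5 Daxx-WT lists. Members on chromosomes X and Y are therefore marked below. They were 28 and 3 of the 970, and 939 members lay on autosomes. No member lay in Daxx itself. Peaks within 1 kb of a start site were present for 5 to 7 of 8 stem cell markers in the LT-HSC and KLS lists of both Daxx genotypes, 4 in the DKO list, 6 and 7 in the CMP lists and 6 in each GMP list, so these markers did not separate the gates. Myeloid progenitor markers had one at all 8 genes in both GMP lists and at 3 to 7 in the others, and no list had one for any of 5 T and NK cell markers.

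The sequences at the centres of 6 members are shown because these members had the widest support across knockout populations. The first 4 are the ones held by all 5 Daxx-KO lists, and the other 2 were held by 4 lists and contain a match to an interferon regulatory factor (IRF) motif. Each is the central 200 bases on the plus strand of GRCm38 (mm10). Capitals mark a RUNX match (TGTGGT, or ACCACA on the opposite strand) or an IRF match (GAAANNGAA on either strand). They lie at chr1:82686576-82686775 (Col4a3), chr17:63362172-63362371 (Fbxl17), chrX:50410420-50410619 (Olfr1324), chr11:3602470-3602669 (Morc2a), chr17:7722204-7722403 (Fndc1) and chr9:42995486-42995685 (Arhgef12). Genes name the nearest protein-coding start site and not a target.
Col4a3: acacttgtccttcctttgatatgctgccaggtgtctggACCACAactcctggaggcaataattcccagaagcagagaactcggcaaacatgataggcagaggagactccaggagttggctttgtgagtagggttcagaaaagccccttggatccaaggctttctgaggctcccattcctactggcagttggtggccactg
Fbxl17: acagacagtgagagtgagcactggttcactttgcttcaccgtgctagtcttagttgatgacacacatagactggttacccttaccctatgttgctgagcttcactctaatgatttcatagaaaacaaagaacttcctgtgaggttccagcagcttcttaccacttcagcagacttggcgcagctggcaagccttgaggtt
Olfr1324: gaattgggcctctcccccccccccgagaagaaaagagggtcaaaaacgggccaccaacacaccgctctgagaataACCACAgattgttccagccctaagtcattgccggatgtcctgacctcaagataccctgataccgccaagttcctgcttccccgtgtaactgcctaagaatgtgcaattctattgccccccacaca
Morc2a: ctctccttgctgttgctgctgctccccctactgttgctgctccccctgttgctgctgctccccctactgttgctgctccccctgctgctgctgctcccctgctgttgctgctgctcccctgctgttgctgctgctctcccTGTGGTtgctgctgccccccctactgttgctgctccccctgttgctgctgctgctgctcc
Fndc1: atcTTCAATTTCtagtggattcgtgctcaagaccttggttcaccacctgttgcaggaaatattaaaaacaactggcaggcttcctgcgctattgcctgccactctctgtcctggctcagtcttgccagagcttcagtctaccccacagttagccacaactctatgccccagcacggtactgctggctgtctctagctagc
Arhgef12: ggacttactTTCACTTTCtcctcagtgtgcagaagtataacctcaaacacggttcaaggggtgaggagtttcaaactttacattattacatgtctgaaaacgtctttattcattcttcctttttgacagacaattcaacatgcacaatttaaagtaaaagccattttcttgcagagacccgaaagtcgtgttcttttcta
The window near Morc2a is a tandem run of short CTG-rich units, and 71% of its bases are masked as repeat in the reference. The window near Olfr1324 is 87.5% repeat, whereas those in Col4a3 and Fbxl17 hold no masked base.

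Support among the members was mostly thin. Of the 970, 834 were held by 2 Daxx-KO lists, 114 by 3, 18 by 4 and 4 by all 5. The LT-HSC list held 753 members (77.6%), the KLS list 464 (47.8%), the LT-HSC 3 d.p.i. list 389 (40.1%), the CMP list 362 (37.3%) and the GMP list 134 (13.8%). Over all 86351 merged intervals, the KLS list held 43882 and the 3 d.p.i. list 43506. The LT-HSC list was the longest, with 70455 peaks, and the CMP and GMP lists had 50590 and 49677. List length therefore bears on these shares, and its part was not tested. Pairs of stem cell lists were the most frequent combinations, and their share over all merged intervals was not computed. LT-HSCs with LT-HSCs at 3 d.p.i. alone accounted for 264 members, and LT-HSCs with KLS cells alone for 256. The most frequent progenitor pair, CMPs with GMPs alone, accounted for 48, and CMPs with KLS cells alone for 97. Of the members in the 3 d.p.i. list, 85.3% were also in the longer LT-HSC list, and of those in the KLS list 72.0% were. The 3 d.p.i. and KLS lists had 54 members in common, which were 13.9% of the former and 11.6% of the latter.

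**Figure D1:**
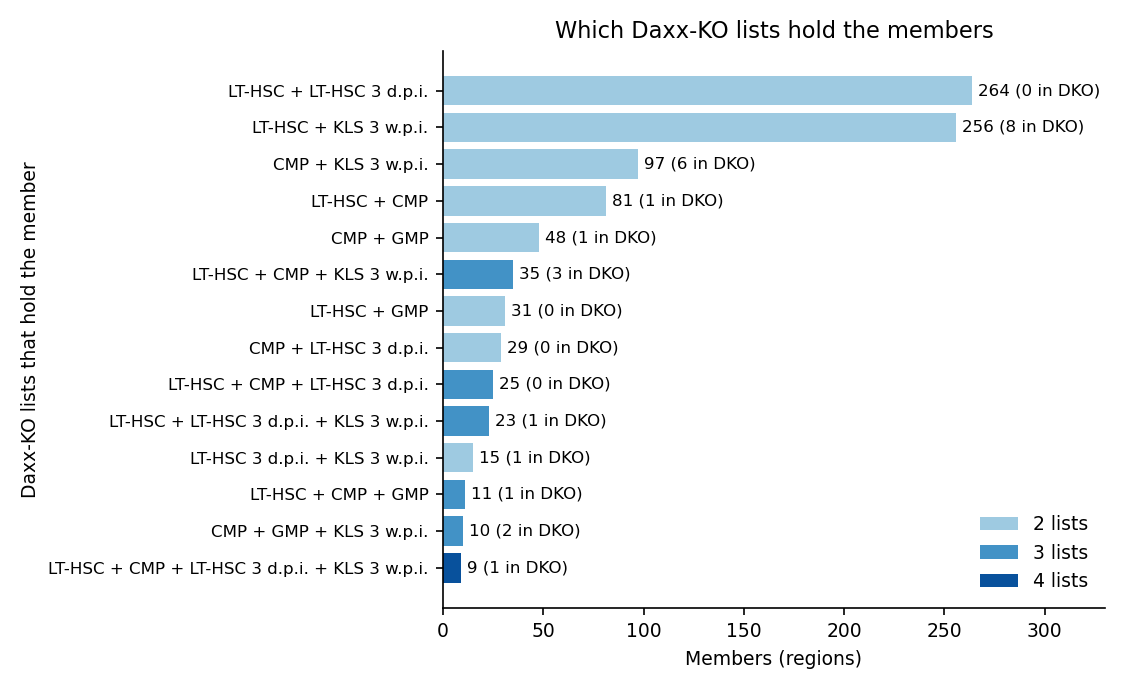
Number of members (horizontal axis) for each of the 14 most frequent combinations of Daxx-KO lists (vertical axis), with darker bars for more lists and the number that also had a DKO peak beside each bar. The 2 longest bars, 264 and 256, both pair the LT-HSC list with a second stem cell list, and none of the 264 had a DKO peak.

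The 4 members held by every Daxx-KO list lay 4365 to 28059 bp from the nearest start site of any gene. One, at chr1:82686107-82687245, lay in an intron of Col4a3, which encodes a basement membrane collagen chain. The nearest start site was that of a Col4a3 transcript that begins within the gene, 28059 bp downstream of the member. The nearest Daxx-WT peak was 37204 bp away. Another, at chr17:63361765-63362778, lay in an intron of Fbxl17, a substrate adaptor of a ubiquitin ligase. The remaining ones lay between genes, at chrX:50410178-50410861 near the olfactory receptor gene Olfr1324 and at chr11:3601921-3603219 near Morc2a, an ATPase that works with the HUSH silencing complex. Repeats covered 12.3%, 35.9%, 94.3% and 70.8% of these members, in the order given. Reads from near-identical repeat copies cannot be placed with certainty, and how such reads were treated is not given in the sources used here. The Olfr1324 member is on chromosome X.

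All of these 4 were also covered by a differential site in the KLS table. Sites were tested by the authors with diffReps on the same libraries, so a gap between the groups is built into which sites are listed, and the values here are descriptions. In KLS cells the Col4a3 site had 202.65, 202.08 and 242.7 scaled reads in the 3 Daxx-KO libraries and 32.84 and 22.93 in Daxx-WT. That was a difference of 2.92 in mean log2(scaled reads + 1), the largest among members. The Fbxl17 site had 100.21, 164.46 and 116.65 against 23.72 and 28.66 (difference 2.21). The Olfr1324 site had 45.65, 88.35 and 68.67 against 12.77 and 12.61 (2.27). The Morc2a site was closer between genotypes, with 38.97, 49.86 and 43.27 against 25.54 and 17.19 (1.03). In each, the lowest knockout library lay above the highest wild-type library. At 3 d.p.i. the same held for 3 of the 4. The Col4a3 site had 144.07, 155.58 and 93.95 in Daxx-KO against 49.58 and 42.2 in Daxx-WT (1.47). The Fbxl17 site had 96.35, 81.13 and 76.01 against 37.19 and 27.2 (1.37). The Olfr1324 site had 96.35, 81.13 and 70.73 against 9.01 and 33.76 (2.16), with its lower wild-type value in the library that stood apart at Xist. Morc2a had no listed site at 3 d.p.i.

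Members held by 4 lists were a varied group of 18. Fndc1, a gene for a fibronectin-domain protein, was nearest to a member at chr17:7721526-7723081 that lay 98587 bp from any Daxx-WT peak. Its KLS site had 111.34, 128.59 and 196.61 scaled reads in Daxx-KO against 36.49 and 40.12 in Daxx-WT (difference 1.86), and its 3 d.p.i. site 197.3, 129.81 and 137.23 against 52.96 and 41.26 (1.68). The Foxn3 member lay between genes, 141584 bp from the start site of that forkhead repressor gene. The Epb41l3 member lay in an exon of a gene for a membrane-skeleton protein. Both members were absent from the 3 d.p.i. list. Foxn3 had 89.08, 73.48 and 103.48 in Daxx-KO KLS cells against 30.1 and 18.34 (1.86). Epb41l3 had 102.44, 158.34 and 110.06 against 22.81 and 29.8 (2.18). The Trim52 member, 351116 bp from the start site of Trim52 and 60.4% repeat, had 45.65, 56.86 and 41.39 against 13.68 and 4.59 (2.42). Pard3, a cell polarity gene, held an intronic member with 110.23, 83.98 and 108.18 against 31.02 and 16.05 in KLS cells (2.11). The other members of this support included introns of Arhgef12 (a guanine nucleotide exchange factor), Thrb (a thyroid hormone receptor), Slc10a7 and Cpsf2, an exon of Abca1 (a cholesterol exporter), the start site of Slc13a3 (a dicarboxylate transporter), and a member of chromosome Y near Gm21748. Hectd2, a ubiquitin ligase gene, was nearest to the only member of 4 or more lists with a DKO peak.

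Members ranking high in the site tables were not always those of widest support. Mex3b, an RNA-binding protein gene, was nearest to a member held by the 2 LT-HSC lists whose 3 d.p.i. site had 125.72, 344.56 and 247.02 in Daxx-KO against 94.65 and 30.95 in Daxx-WT (2.00). The lowest knockout value there lay close to the higher wild-type one. Csf2ra, the alpha chain of the GM-CSF receptor, was nearest to a member 17388 bp away whose 3 d.p.i. site had 126.64, 134.58 and 87.62 against 28.17 and 33.76 (1.86). An exonic member in Lyst, a gene for lysosome trafficking, had 66.07, 55.36 and 69.67 against 13.52 and 24.38 (1.75). The member nearest to Kap, 129924 bp away, was in the CMP and GMP lists only, yet sites covered it in both tables. It had 32.29, 67.36 and 30.1 against 11.86 and 4.59 in KLS cells (2.29), and 22.94, 25.77 and 25.34 against 4.51 and 10.32 at 3 d.p.i. (1.70). That member was 68.5% repeat.

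**Figure D2:**
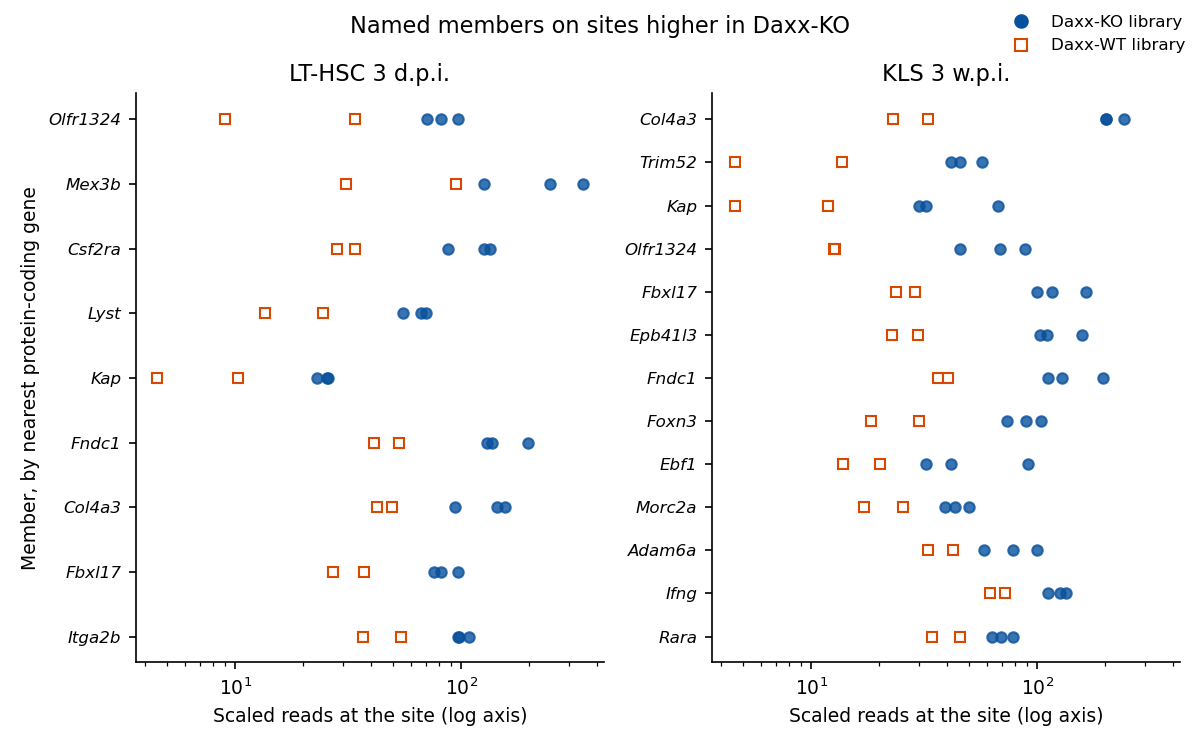
Scaled reads per library (log axis) at sites on named members, in LT-HSCs at 3 d.p.i. (left) and KLS cells at 3 w.p.i. (right), with filled circles for each of the 3 Daxx-KO libraries and open squares for each of the 2 Daxx-WT libraries. Only sites at which every Daxx-KO library lay above every Daxx-WT library are plotted, so the circles lie to the right of the squares in each row, and the gap is widest for Col4a3 in KLS cells.

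Over all members, 115 sites of the 3 d.p.i. table lay on 113 members and 94 of these sites (81.7%) were higher in Daxx-KO. Among all 11927 listed sites 29.1% were higher in Daxx-KO, and among the 4578 on merged Daxx-KO intervals 59.5% were. In the KLS table, 170 sites lay on 169 members and 154 (90.6%) were higher in Daxx-KO, beside 19.1% of all 17311 sites and 46.1% of the 5635 on merged intervals. The rule used the same libraries, so nothing is read from these shares. The median difference on members was 0.93 at 3 d.p.i. and 1.13 in KLS cells, while over all listed sites it was -1.05 and -1.27. Rescaling each library to its mean reads per window moved the medians over all sites to -0.72 and -0.81 and left the members' shares at 81.7% and 90.6%. Without chromosomes X and Y, 92 of 113 and 150 of 166 sites were higher in Daxx-KO.

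Most members were not listed as differential. Of the 389 members in the 3 d.p.i. list 21.3% lay on a listed site, and of the 464 in the KLS list 29.3% did. The share on a KLS site that was higher in Daxx-KO was 12.9% of members held by 2 lists, 26.3% of those held by 3 and 55.6% of those held by 4, and all 4 of the members held by 5 lists were on one. At 3 d.p.i. these shares were 8.15%, 15.8%, 22.2% and 75%. Peak height followed the same order in KLS cells. The authors' fold enrichment over background had a median of 4.61, 5.34, 6.01 and 9.15 for members of 2, 3, 4 and 5 lists. Width rose as well, from a median of 702.5 bp to 775, 924 and 1076.5 bp. The trends in sites and width are in part built in. The KLS and 3 d.p.i. lists count as support, and their libraries also gave the sites. Members of 2, 3, 4 and 5 lists were in the KLS list in 373 of 834, 73 of 114, 14 of 18 and 4 of 4 cases. A merged interval spans all its peaks, so it can widen with each list that holds it.

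Compared with peaks that Daxx-WT lists also held, members were narrow and low. Their median width was 716.5 bp, against 1034 bp for the 59093 merged intervals held by 2 or more Daxx-KO lists and also by a Daxx-WT list, here called shared intervals. Median fold enrichment was 3.71 against 6.51 in the 3 d.p.i. list and 4.73 against 6.41 in the KLS list. Intervals held by a single Daxx-KO list and no Daxx-WT list were narrower and lower still. Their median width was 550.5 bp, and their median fold enrichment 3.43 in the 3 d.p.i. list and 4.42 in the KLS list. Members just inside the rule lay close to wild-type peaks. The smallest gap was 27 bp, 4 members had a gap of at most 100 bp and 71 of at most 500 bp, whereas 307 lay over 10 kb away and the median gap was 5134 bp. Just outside the rule, 2 intervals were left out for sharing 100 bp or fewer with a Daxx-WT peak, the smallest overlap being 52 bp.

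To read the pattern in a population the choice had not used, intervals were chosen from 4 populations by the same rule and looked up in the lists of the fifth. Of 682 intervals chosen without the 3 d.p.i. lists, 73 (10.7%) were held by the 3 d.p.i. Daxx-KO list alone and 13 (1.91%) by the Daxx-WT list alone. In KLS cells 91 of 625 (14.6%) were held by Daxx-KO alone and 9 (1.44%) by Daxx-WT alone. In LT-HSCs the numbers were 120 (12.3%) and 28 (2.87%) of 977. In CMPs and GMPs the order was the opposite, with 107 (9.34%) against 230 (20.1%) of 1145 and 44 (4.19%) against 96 (9.13%) of 1051. The order followed the list lengths in all 5 populations. Intervals chosen by the mirrored rule showed the same order, so the Daxx-KO list alone held 84 (3.10%) and the Daxx-WT list alone 19 (0.701%) of 2710 at 3 d.p.i., and 131 (4.74%) and 12 (0.434%) of 2762 in KLS cells. The share held by the Daxx-KO list alone was higher after the Daxx-KO choice than after the mirrored one in each population, from 4.19% against 3.11% in GMPs to 14.6% against 4.74% in KLS cells. With 1 list per group, no test over samples was run between these shares.

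**Figure D3:**
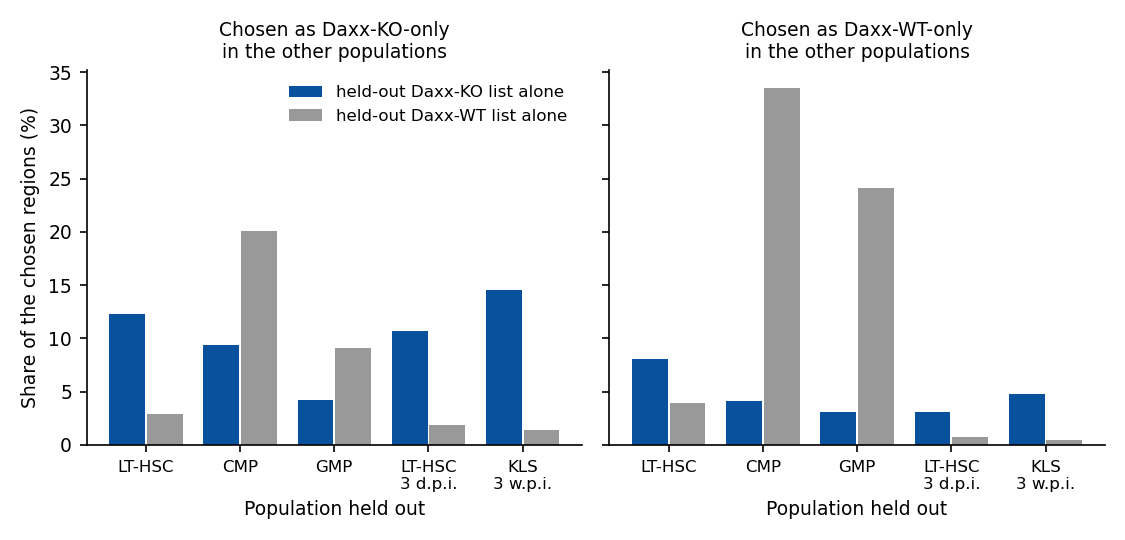
Share of intervals (percent) chosen from 4 populations that the held-out population's Daxx-KO list alone or Daxx-WT list alone contained, for the Daxx-KO choice and for the mirrored Daxx-WT choice. Daxx-KO alone leads in LT-HSCs, LT-HSCs at 3 d.p.i. and KLS cells (12.3%, 10.7% and 14.6%), and Daxx-WT alone leads in CMPs and GMPs (20.1% and 9.13%).

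Few members had a peak in cells that also lacked Pu.1. The DKO list held 28 of 970 members (2.89%, 95% Wilson interval 2.00 to 4.14, which covers counting error only), beside 23.5% of all merged Daxx-KO intervals, 32.4% of shared intervals and 1.44% of the 6890 intervals held by a single Daxx-KO list and no Daxx-WT list. Among members in the KLS Daxx-KO list, from the same kind of cells, 23 of 464 (4.96%) had a DKO peak, against 4.66% of single-list intervals and 42.1% of shared intervals in that list. The share was 4.85% of the members chosen without the GMP lists, and 0.557% when only peaks with a score of 830 or more were used in all lists that give one, DKO included. DKO peaks were rarer at low peaks in general. Within the middle range of the members' KLS fold enrichment, 4.04 to 5.79, the shares were 4.27% of members, 3.90% of single-list intervals and 22.3% of shared intervals. Among intervals held by 2 or more Daxx-KO lists, the share with a DKO peak went from 2.89% with no Daxx-WT list to 4.22% with 1 and 64.7% with all 5. In sorted bulk cells, a change in accessibility per cell and a change in which cells fill the gate cannot be told apart. In the DKO list 2 of 5 mature neutrophil markers had a start-site peak, against 0 of 5 in both other KLS lists, and its part in these shares was not tested.

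The 28 members with a DKO peak lay near genes of varied function. Some were genes of immune cells, and the share of such genes was not compared with that of other intervals. The peak with the highest DKO fold enrichment, 6.82, was in an exon of the lipocalin gene Lcn4 at chr2:26668465-26669264. Next were members at immunoglobulin heavy chain variable segments, at 6.75 (Ighv1-27) and 6.05 (Ighv1-12), and one 108128 bp from Sgk1, a stress-induced kinase gene, at 5.54. Others lay near the start site of Clec12a (an inhibitory myeloid lectin), in P2rx4 (an ATP-gated channel), and near Thy1, Nfkbiz (a modulator of NF-kB) and Hvcn1. The member named for Satb1 lay 328972 bp from its start site. Introns of Cep192, Slc12a7, Heca and Cadps also held members with a DKO peak.

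Site values were also read in DKO cells. The DKO table listed 135 sites on 132 members, and 102 of these were higher in DKO than in Daxx-WT, beside 72.1% of all 50928 sites and 31.4% of the 19538 on merged Daxx-KO intervals. By limma on log2(scaled reads + 1) with Benjamini-Hochberg adjustment over all tested windows, 85 of the 135 were higher and 29 lower in DKO at an adjusted p under 0.05. The fit gave every site on a member the same SE, 0.359, so these calls rested on the size of the difference alone. A site near Ap5z1 at 1.02 passed and one on the Ighv1-27 member at 1.01 did not. Over all sites 67.3% were higher and 14.9% lower. The DKO libraries were not used by the rule, but the Daxx-WT libraries were, since their list had to lack a peak at each member, and the authors listed these sites for a difference between the same libraries. The calls on members are therefore not independent of the choice. The scaling decided the number of calls. With libraries scaled to their mean reads per window, 3 sites on members were higher and 33 lower, and the median difference fell from 1.15 to 0.47 on members and from 1.29 to 0.62 over all sites. With either DKO library left out, no site on a member passed. Of the 28 members with a DKO peak, 21 lay on a DKO site, and all 21 were higher in DKO.

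Some members had DKO values above wild type without a DKO peak, and these values are descriptions for the same reason. Col4a3 had 72.11 and 69.33 scaled reads in DKO and 25.74 and 14.26 in Daxx-WT, a difference of 1.83 (n = 2 per group). Its SE of 0.359 was common to all sites on members and does not describe the spread of these libraries. Epb41l3 had 82.71 and 96.5 against 18.64 and 28.52 (1.91), and Fbxl17 had 62.56 and 62.77 against 18.64 and 24.13 (1.52). Tgfb3, the gene of a transforming growth factor, was nearest to a member in an intron of Ttll5 with 278.89 and 229.53 against 60.35 and 70.19 (1.94). None of these had a DKO peak. Lcn4, which had one, reached 271.47 and 173.32 against 61.23 and 78.97 (1.63). DKO libraries lay above Daxx-WT libraries at each of these sites. Under the mean scaling the differences were 1.15 for Col4a3, 1.23 for Epb41l3, 0.84 for Fbxl17 and 0.94 for Lcn4. Of 42 members on sites of both KLS tables, which share the Daxx-WT libraries, 38 were higher in both.

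Members were mostly distal. Of the 970, 812 (83.7%, 95% Wilson interval 81.3 to 85.9) lay more than 1 kb from a start site of any gene, beside 72.9% of all merged Daxx-KO intervals, 66.7% of shared intervals and 86.5% of single-list intervals. By GENCODE annotation 377 lay in introns, 356 between genes, 158 within 1 kb of a start site and 79 in exons. A start site of any gene lay inside 86 members, and 64 of them held one of a protein-coding gene. The median distance to a protein-coding start site was 15766.5 bp, and 135 members were over 100 kb away. Members at start sites included Slc13a3, a long noncoding RNA near the retroviral envelope gene Erv3, and a noncoding gene whose start site lay in the member 72173 bp from Klf4.

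Repeats covered 20.4% of a member on average, 18.5% of a single-list interval and 15.3% of a shared interval. More than 50% of the bases were repeat in 90 members (9.28%), against 7.45% of single-list and 2.64% of shared intervals. The mean rose with support, from 19.5% for members of 2 lists to 23.9%, 31.5% and 53.3% for 3, 4 and 5. An intronic member of Hira, the gene of the other H3.3 chaperone, was 100% repeat and had a 3 d.p.i. fold enrichment of 7.93. A telomeric repeat (TTAGGGTTA) was found in the central 200 bases of 4 members (0.412%), against 0.276% of single-list and 0.191% of shared intervals. Repeat classes were not analysed here.

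**Figure D4:**
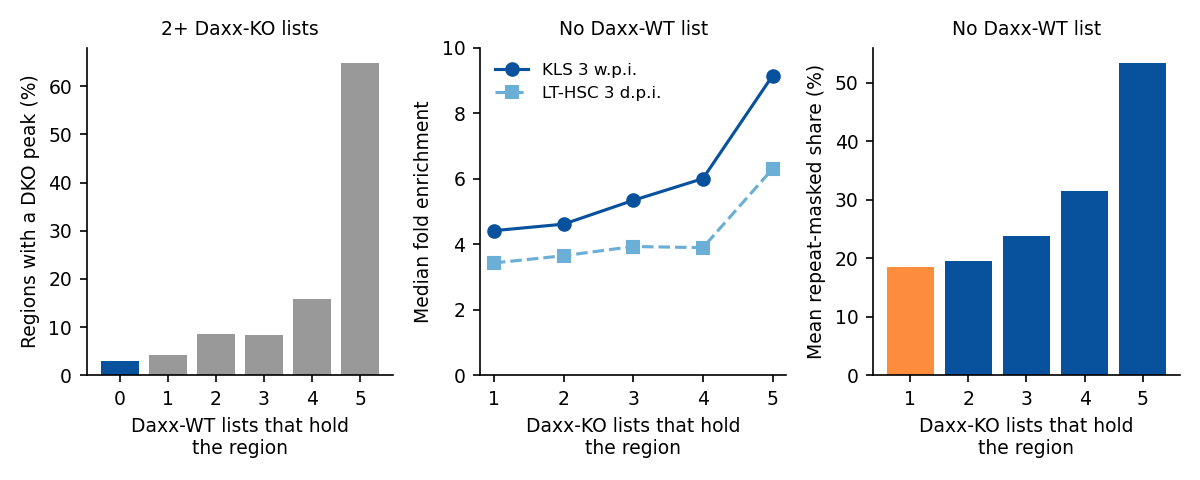
Left, share of merged intervals held by 2 or more Daxx-KO lists that had a DKO peak (percent), by the number of Daxx-WT lists that also held them, with members in blue at 0 lists. Middle and right, median fold enrichment in the KLS and 3 d.p.i. lists and mean repeat share (percent) of intervals without Daxx-WT, by the number of Daxx-KO lists, where 1 list is outside the rule and 5 lists rest on 4 members; the DKO share is 2.89% at 0 Daxx-WT lists and 64.7% at 5, and the repeat share runs from 18.5% to 53.3%.

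Short motifs were searched on both strands of the central 200 bases of every merged interval. The Pu.1 motif GAGGAAGT was found in 53 members (5.46%, interval 4.20 to 7.08), against 5.77% of all intervals. The RUNX motif TGTGGT was found in 258 members (26.6%), against 22.6% of single-list, 19.2% of shared and 20.0% of all intervals. The GATA motif AGATAA was found in 11.0%, against 8.30% of shared intervals and 11.6% of single-list ones. The E-box CANNTG was found in 66.6% (63.6 to 69.5), against 62.8% (62.4 to 63.2) of shared and 67.0% of single-list intervals. For the other motifs the interval of the members' share covered the share in shared intervals, with AP-1 (TGANTCA) at 6.49% against 6.88%, C/EBP (TTGCNNAA) at 8.25% against 8.32%, IRF (GAAANNGAA) at 7.32% against 6.97% and CTCF (AGGGGGCG) at 1.86% against 2.69%. Matches of different motifs may overlap. A match describes letters and not binding.

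**Figure D5:**
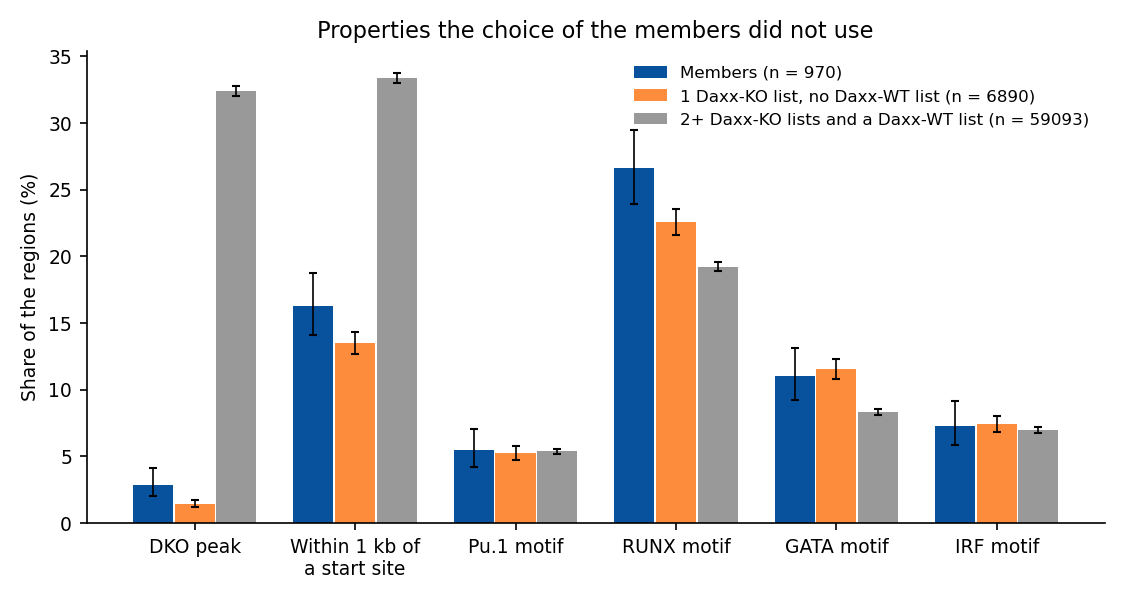
Share of regions (percent, with 95% Wilson intervals for counting error) with a DKO peak, within 1 kb of a start site, or with a Pu.1, RUNX, GATA or IRF motif, in members, in single-list intervals without Daxx-WT and in shared intervals. Members lie near the single-list intervals for DKO peaks (2.89% and 1.44%) and far from the shared ones (32.4%), the RUNX bar of members (26.6%) is the highest of its 3, and the Pu.1 bars are level.

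Members were spread over many genes. They were nearest to 892 of 21911 protein-coding genes (4.07%), of which 826 had 1 member, 58 had 2, 7 had 3 and 1 had 7. Among 20 stem cell transcription factors, 5 were nearest to a member, namely Lyl1, Runx1, Erg, Gfi1b and Etv6, and among 19 granulocyte and monocyte fate factors 6 were, namely Irf8, Klf4, Egr1, Rara, Csf2ra and Csf3r. These genes lie in regions with many peaks. Of the 357 merged intervals nearest to the stem cell factors 1.40% were members, and of the 215 nearest to the granulocyte and monocyte factors 2.79%, beside 1.12% of all. Among 22 lymphoid genes, 4 were nearest to 6 members (2.71% of 221 intervals). Ebf1, the factor that commits cells to the B lineage, had 3, and Tcf7, Notch1 and Satb1 had 1 each. The Satb1 member lay 328972 bp from the start site of Satb1.

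Of 25 interferon-stimulated genes only Rtp4 was nearest to members. It had 2, and the one at chr16:23636390-23637453, held by the LT-HSC and KLS lists, was lower in Daxx-KO at 3 d.p.i., with 19.27, 14.32 and 22.17 scaled reads against 47.33 and 32.82 (-1.07). Of 20 inflammatory cytokine and chemokine genes only Ifng was, with 2 members in the KLS list. The nearer one, 27785 bp from its start site, had 111.34, 126.84 and 133.58 in Daxx-KO KLS cells against 72.07 and 61.9 (0.88). One gene each was nearest to a member among 19 granule and neutrophil genes (Cxcr2, a chemokine receptor of neutrophils), 20 erythroid and megakaryocyte genes (Itga2b, the platelet integrin) and 24 genes of H3.3 deposition and silencing (Hira). No member was nearest to any of 13 nucleic acid sensors, 14 AP-1 factors, 18 cell cycle genes or 13 loci that the study discusses for accessibility, which had 63, 146, 178 and 93 merged intervals nearest to them. With so few members per list, these counts cannot show a depletion.

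The gene with 7 members was Adam6a, which lies within the immunoglobulin heavy chain locus, and this locus was singled out after the values were seen. In Igh (chr12:113254830-116010093), where V, D and J segments are joined in developing B cells, 11 of 117 merged intervals were members (9.40%). The KLS list held 10 of the 11, the CMP list 9, the LT-HSC list 4, the GMP list 2 and the 3 d.p.i. list none. Members overlapped the segments Ighv14-2, Ighv11-2, Ighv12-3, Ighv1-12 and Ighv1-78 or the start site of Ighv1-27. The member at chr12:113994254-113995192 had 50.11, 73.48 and 52.68 scaled reads in KLS cells of Daxx-KO animals against 14.6 and 28.66 (1.45). Its DKO values were 44.54 and 52.46 against 13.31 and 26.32 (1.32). The member at chr12:114615000-114616257 had 77.94, 99.73 and 58.32 against 32.84 and 42.41 in KLS cells (1.02). Knockout values lay above wild-type ones at both. Neighbouring V segments are similar in sequence, and their reads may be hard to place.

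The whole locus held 80 peaks in the KLS Daxx-KO list, 37 in Daxx-WT and 55 in DKO. Those lists differ in length, with 44694, 33325 and 22156 peaks, and the locus's share of each was not computed. Daxx-KO against Daxx-WT, the locus held 77 against 70 in CMPs and 61 against 81 in GMPs. It held 23 against 11 at 3 d.p.i. and 49 against 34 in LT-HSCs. At Ebf1, the member at chr11:44928315-44928939 had 32.29, 90.98 and 41.39 in Daxx-KO KLS cells against 20.07 and 13.76 (1.52), with 1 knockout library well above the other 2. The B cell markers were read beside these members. A start-site peak was present at 2 of 5 B cell markers in the KLS Daxx-KO list and at 1 of 5 in the Daxx-WT and DKO lists, the difference being Ebf1 itself, while Cd79a and Ms4a1 had none in any KLS list. Whether B lineage cells in the gate contribute was not tested. The T cell receptor loci held 3 of 86 (alpha and delta) and 1 of 34 (beta) merged intervals as members, and Igk, Igl and the gamma locus none.

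On chromosome X, 28 of 1801 merged intervals were members (1.55%), beside 1.12% of all merged intervals and 1.51% on chromosome 12, the highest autosome. The 3 d.p.i. list held 11 of these 28 members and the KLS list 12. They included 3 in 4933407K13Rik and 1 in Firre, noncoding genes whose repeats on the inactive X chromosome anchor its folding. The number of peaks in these genes at 3 d.p.i. was 8 in Daxx-KO against 1 in Daxx-WT for 4933407K13Rik and 17 against 1 for Firre, where the Daxx-WT list includes the library that stood apart. In KLS cells it was 8 against 4 and 17 against 16. The part of animal sex in these 4 members was not tested.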

How the data were processed

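ATAC-seq peak lists and site tables were used as deposited, on mm10. Per the submitters' processing notes, reads were handled with CASAVA 1.8.4, cutadapt 1.13, STAR 2.5.3 and bedtools, and the peak caller is not given in the sources used here. CMP and GMP libraries had additional single-read sequencing. The authors deposited 11 peak lists, 1 per group. Positions are all that 6 of them give. The remaining 5 are the conservative output of an irreproducible discovery rate analysis with the authors' score (415 or more), fold enrichment (a ratio), −log10 p-value and −log10 q-value for each peak, and an interval listed for several summits entered once, at its highest fold enrichment. The −log10 values were not used. The authors' 3 diffReps 1.55.6 tables give a signal per library, the reads at a site divided by a normalisation constant from the file headers. Mean reads per window were 4.21 to 16 per library. The depth behind the peak lists is unknown. The tables also hold the authors' log2 fold changes, p-values and adjusted p-values, which were not used.

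Intervals were merged and compared at 1 bp on chromosomes 1 to 19, X and Y, and annotated with GENCODE M21 on the GRCm38 sequence, whose soft-masked bases counted as repeat. Sites were compared on log2(signal + 1), a scale that understates changes of low sites. DKO was tested with limma 3.58.1 in R 4.3.3, with Benjamini-Hochberg adjustment over the 446463 windows that the header reports as tested. The code was also run on simulated sites of equal spread. Those had neither the authors' selection of sites nor an error of scaling, so that run does not bear on the calls given here. Other steps used pysam 0.24.0, matplotlib 3.10.9, scipy 1.17.1, numpy 2.4.6 and pandas 2.3.3 under Python 3.11.15. Named members were those of all 5 lists and then 4 lists up to 10, those with the largest differences in each table, those with the highest DKO fold enrichment, up to 2 per gene list, and the widest at start sites. The members and gene lists were chosen with earlier results of these data known. Alternatives were other overlaps, score limits, support, start sites, scalings and left-out populations or libraries. Where libraries of a group were not separate mice, p-values measure technical spread only.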

Additional observations from a re-analysis of the deposited data

Results flagged for a closer look

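The direction at members was compared between both Daxx-KO tables, which share the genotype, and between both KLS tables, which share the cells. At 6 members, every treated library lay on one side of Daxx-WT in one table of such a pair and on the other side in the other. The difference between the tables was not tested. The KLS tables share their Daxx-WT libraries, and the sites of a member were placed separately in each table.

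For 4 of them, sites were higher in Daxx-KO at 3 d.p.i. and lower in Daxx-KO KLS cells. The difference in mean log2(scaled reads + 1) was 1.17 and -1.09 at Clint1 (a vesicle trafficking gene), 0.96 and -1.38 at Fam3b, 0.76 and -1.17 at Mprip (a myosin phosphatase partner) and 0.82 and -0.94 at Unk (an RNA-binding zinc finger gene). At Fam3b the KLS values were 30.06, 33.24 and 32.92 in Daxx-KO against 76.63 and 93.99 in Daxx-WT. At Unk they were 27.84, 21.87 and 19.75 against 41.96 and 48.14.

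The others differed between Daxx-KO and DKO in KLS cells. Foxf1, a forkhead factor gene, was nearest to a member that was higher in Daxx-KO (1.13) and lower in DKO (-1.34), with 13.79 and 17.8 scaled reads in DKO against 53.25 and 31.81. The member in Wdr70 was lower in Daxx-KO (-1.64) and higher in DKO (1.16), with 136.79 and 103.99 in DKO against 47.04 and 59.23. Its Daxx-KO site reaches past the member on one side, so the values are not of the same bases. Opposite directions also occurred between 3 d.p.i. Daxx-KO and DKO, which differ in both cells and genotype, with -0.94 and 1.33 at Heca and 0.90 and -1.53 at Coq2.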

How the results depend on the processing

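No single value changed sign under the alternatives run, but the balance of DKO calls turned with the scaling (below). Of the values that summarise a comparison, 87 counted as unchanged and 38 as moved, and of those for single members 42 and 28. Shares among the former were held against the Wilson interval of the main share, which covers counting error and not spread between libraries. Counts had no interval and were judged by their ratio to the main count. A count of 661 members (score of 540 or more) beside 970 was thus unchanged, and 625 (without KLS) had moved. Requiring a Daxx-WT peak to cover 50% of an interval before leaving it out gave 1600 members, 6.38% with a DKO peak, 4% with the Pu.1 motif, and held-out Daxx-KO-alone shares of 20.95% (CMP), 15.8% (GMP), 22.0% (3 d.p.i.) and 24.96% (KLS). In the 5 lists with scores, a score of 540 or more gave 11.8% mostly repeat members and held-out shares of 11.5% (CMP) and 5.92% (3 d.p.i.). A score of 830 or more gave 359 members, 0.557% with a DKO peak, 17.3% mostly repeat, 8.08% with the Pu.1 motif, and held-out shares of 16.2% (CMP), 8.56% (GMP), 4.39% (3 d.p.i.) and 8.14% (KLS). Support by 3 lists gave 136 members, 5.88% with a DKO peak, 15.4% mostly repeat and 7.35% with the Pu.1 motif. Protein-coding start sites alone gave 88.5% distal, and whole members gave 11.1% with the Pu.1 motif. Leaving out 1 population gave 625 (without KLS) to 1145 (without CMP) members, 2.56% to 4.85% with a DKO peak, 81.3% to 85.3% distal, 6.66% to 12.3% mostly repeat and 5.02% to 6.16% with the Pu.1 motif. Without chromosomes X and Y, added after seeing the data, 28 of 939 members (2.98%) had a DKO peak.

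In DKO against Daxx-WT, scaling to the mean per window turned the calls on members from 85 higher and 29 lower to 3 and 33, and those over all sites from 34252 and 7603 to 3321 and 13847. Leaving out a library gave 0 to 65 higher and 0 to 20 lower, with 0 of either without DKO replicate 1 or 2, and 49 and 12 without Daxx-WT replicate 1. The lone library was assumed to vary like the other group. Same-numbered KLS libraries did not deviate together (correlation -0.003). With a replicate block 87 sites were higher and 30 lower in DKO, and 154 were higher in Daxx-KO. The 3 d.p.i. columns carry no replicate number. A count test on recovered reads was not run. Depth limits the call of narrow, low peaks, and absence from a list does not show closed chromatin.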
